A study of Gallus gallus with 6 samples.

Results

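Molecular chaperones and the proteasome were examined in blood leukocytes of chickens. The genes were those whose array probes carried a RefSeq accession that maps to a symbol starting with HSP, DNAJ, CCT and a digit, or PSMA to PSME, with genes on chromosomes Z and W left out. They fall into 4 families, which were described apart. The array named 66 such genes, and 65 of them passed the background filter, out of 29509 features tested (4859 of them named genes). These were 15 HSP, 18 DNAJ, 6 CCT and 26 proteasome (PSM) genes. The gene left out was DNAJC6, auxilin, which strips clathrin from vesicles, with none of its 3 probes well above background in any library. A gene was represented by the brightest of its probes that were well above background on 3 or more arrays. All 65 were well above background on all 6 arrays.

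Chaperones bind unfolded protein chains and let them fold. HSP70 proteins (symbols HSPA) do so in cycles of ATP hydrolysis that J-domain proteins (DNAJ) start and HSP110 relatives help to end, HSP90 proteins take over later folding steps, and the CCT ring encloses actin, tubulin and other chains. Proteins to be removed are marked with ubiquitin and cut up by the proteasome, a barrel of stacked alpha and beta rings (the 20S core) opened by a cap of ATPases and other subunits (the 19S particle). In leukocytes the peptides it makes also feed antigen presentation by MHC class I.

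The cells were leukocytes purified on a density gradient from blood drawn at the wing, from birds aged 1 to 2 months. There were 3 libraries labelled male and 3 labelled female, each of Cy3-labelled total RNA on 1 array of 1 colour. The series' title names transgenic and non-transgenic chickens, but the labels of these samples give no genotype or strain, and nothing in them ties a sample to its own bird, so p-values measure only the spread between these samples. The design compares expression by sex. Values are processed spot intensities, scaled to each array's 75th percentile and put on a log2 scale. Differences are male minus female. They are comparable for 1 probe across libraries, not between probes.

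Between 79.0% and 83.1% of spots were well above background per array. Each slide held the 3 arrays of 1 label, and the effects of slide and label cannot be told apart. The W-linked gene HINTW, which only females carry, read 4.58, 4.48 and 6.99 in the libraries labelled male 1, 2 and 3, against 6.61, 6.47 and 4.65 in those labelled female 1, 2 and 3. The libraries labelled male 3 and female 3 thus went against their labels. Directions below keep the labels as deposited, and the main results are also given without these 2 libraries, an alternative chosen after the data were seen. Markers of several blood cell types were measured: 8 of 12 T cell, 7 of 10 B cell, 9 of 10 monocyte, 5 of 15 heterophil, 5 of 10 thrombocyte and 9 of 17 erythroid genes listed. In such mixed samples, fewer cells of a type and less RNA per cell cannot be told apart.

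None of the 65 genes passed between the labelled sexes. With limma across all features, neither a member nor any other feature (0%) reached an adjusted p below 0.05. HINTW was not called either: it differed by -0.56 log2 (SE 0.83, limma adjusted p = 0.948). The contrast by label thus missed a gene that only females carry, and the absence of calls says little about sex. The lowest limma adjusted p among members was 0.948, against 0.104 over all features. At an unadjusted p under 0.05 there was 1 member, HSPB2, or 1.54% of the 65, against 3.81% of all features. The male-labelled mean was higher in 46 of the 65 (70.8%), against 57.3% of named genes and 47.5% of all features. The median difference was 0.08 log2 over the members, 0.04 over named genes and -0.01 over all features. The families stayed within a narrow band: the median member spanned 1.32-fold from its lowest to its highest library, against 1.51-fold for named genes and 1.60-fold for all features. DNAJC15 and PSMD2 were the 2 members (3.08%) that spanned more than 2-fold, which 27.8% of all features did. Members and other features were not matched for brightness in these spreads, and some other features passed the filter on fewer arrays.

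**Figure D1:**
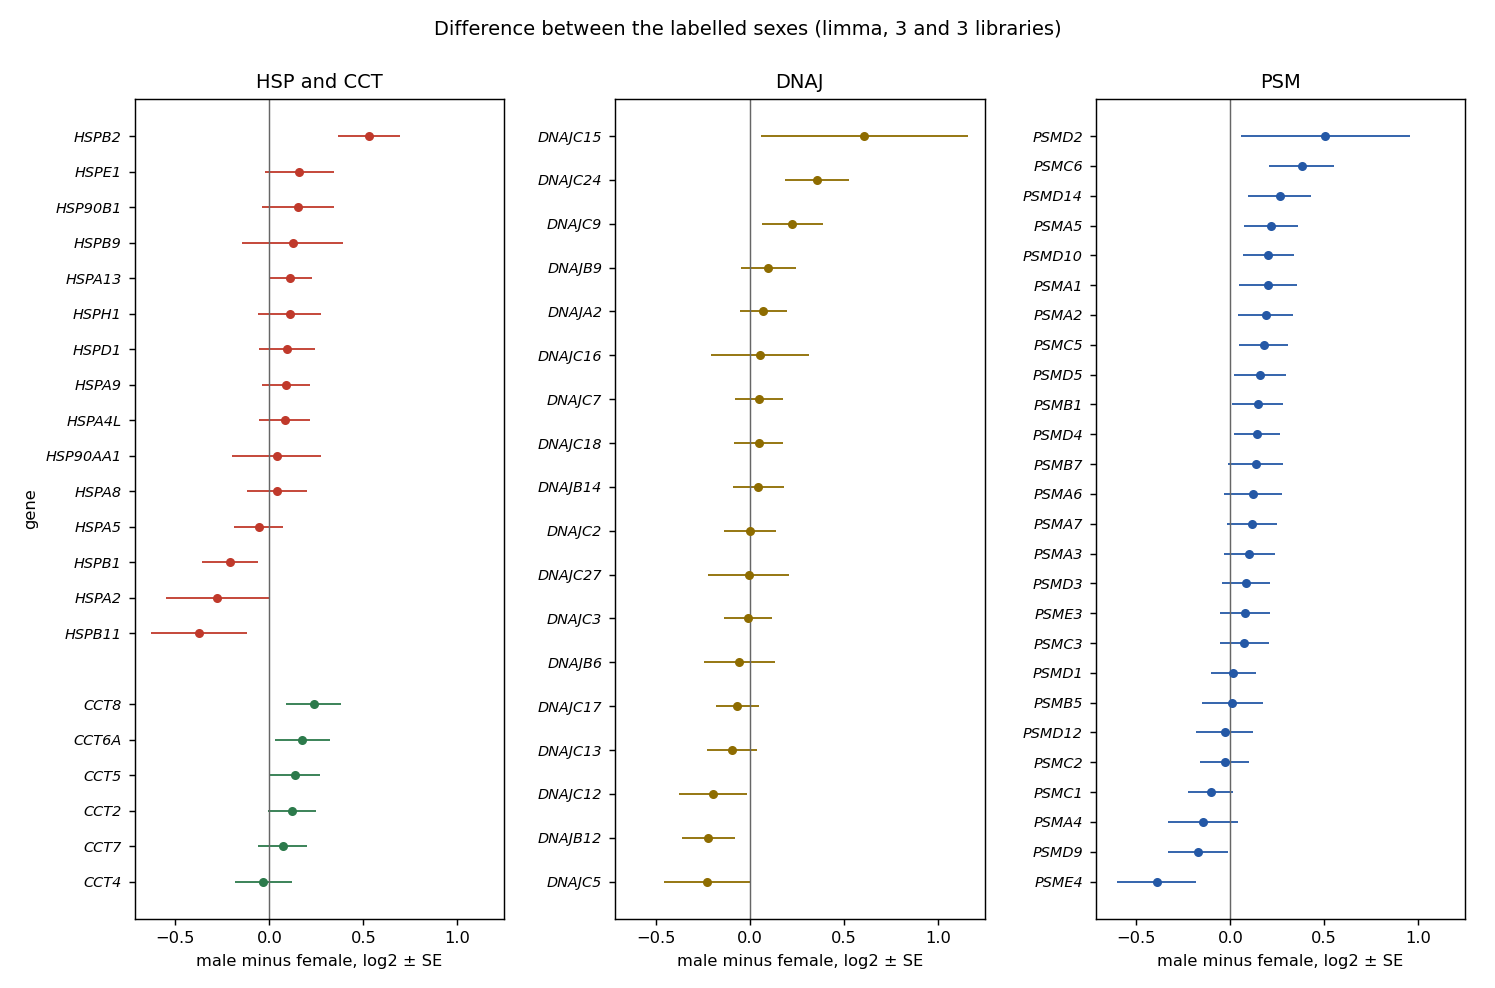
Male minus female difference in log2 (points) with the limma standard error (bars) for each of the 65 genes, 3 libraries per label. HSP and CCT genes are on the left, DNAJ genes in the middle and PSM genes on the right, sorted within a family, and 46 points lie to the right of 0.

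Of the 26 proteasome genes, 20 had the higher mean in the male-labelled libraries and 6 the lower, and none passed. Their median difference was 0.12 log2, or 0.06 without the library labelled female 1 and 0.18 without that labelled female 3. By library the family's median deviation from each gene's own mean in log2 was 0.09, 0.05 and 0.01 in those labelled male 1, 2 and 3, against -0.15, -0.10 and 0.06 in those labelled female 1, 2 and 3. The libraries labelled female 1 and 2 were thus the low ones, while that labelled female 3 lay among the male-labelled ones. The one labelled female 1 was the lowest of the 6 for 16 of the 26 genes (61.5%), against 27.5% of named genes and 19.9% of all features. The one labelled female 3 was above both other female-labelled libraries for 18 of 26 (69.2%), against 46.9% of named genes and 37.3% of all features.

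**Figure D2:**
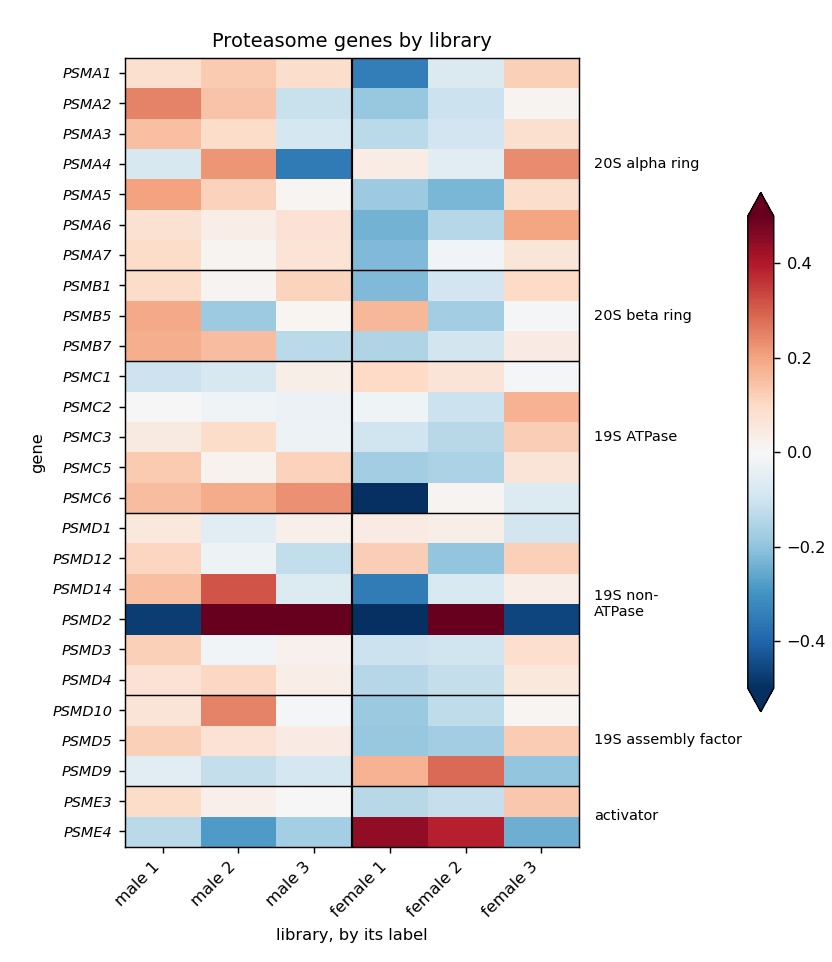
Deviation of each of the 26 proteasome genes from its own mean over the 6 libraries (log2, colour), with libraries across by label and genes down by subcomplex; colours saturate at 0.5 in either direction. The column for female 1 is the lowest for 16 genes, and PSMD2 alternated between libraries. PSME4, PSMD9 and PSMC1 were highest in the libraries labelled female 1 and 2, PSMC1 on its brightest probe only.

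The alpha ring, which gates the entry of the 20S core, also had the libraries labelled female 1 and 2 at the bottom. Its 7 genes, PSMA1 to PSMA7, had median deviations in log2 of 0.09, 0.12 and 0.01 in the male-labelled libraries, against -0.19, -0.10 and 0.09 in those labelled female. For all 7 the library labelled female 3 read above those labelled female 1 and 2. PSMA5 read 3.74, 3.65 and 3.55 in the male-labelled libraries, against 3.35, 3.31 and 3.63 in the female-labelled ones. Those labelled female 1 and 2 were below all male-labelled libraries and that labelled female 3 was not, so the groups overlapped. The mean of PSMA5 was 3.65 ± 0.09 in the male-labelled and 3.43 ± 0.17 in the female-labelled libraries (SD, n = 3 each), a difference of 0.22 log2 (SE 0.14, limma adjusted p = 0.948). PSMA1, which like PSMA2 and PSMA4 is named after its values were seen, read 4.87, 4.91 and 4.87 in the male-labelled libraries, against 4.44, 4.71 and 4.90 in the female-labelled libraries. All 5 PSMA2 probes gave a male minus female difference between 0.18 and 0.20 log2. PSMA4 was the member whose brightest probe went the other way, at -0.14 log2, while its other 2 probes gave 0.05 and 0.10.

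Of the beta ring, which holds the cutting sites, PSMB1, PSMB5 and PSMB7 were measured. PSMB7, the subunit with trypsin-like activity, read 2.89, 2.86 and 2.57 in the male-labelled libraries, against 2.56, 2.62 and 2.75 in the female-labelled ones. PSMB5, which carries the chymotrypsin-like site, read 3.47, 3.09 and 3.29 in the libraries labelled male 1, 2 and 3, against 3.44, 3.10 and 3.27 in those labelled female 1, 2 and 3. It was high in both libraries numbered 1 and low in both numbered 2, whatever the label, and its second probe ordered the libraries almost alike, with 3.02, 2.64 and 2.87 in the male-labelled against 3.01, 2.67 and 2.79 in the female-labelled ones. Its difference between the labels was 0.01 log2 (SE 0.16).

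PSMC6, an ATPase of the 19S base, was the proteasome gene whose labelled groups did not overlap. It read 2.66, 2.69 and 2.73 in the male-labelled libraries, against 1.99, 2.52 and 2.44 in the female-labelled ones. The male-labelled libraries lay close together, and that labelled female 1 stood apart below. The means were 2.69 ± 0.04 in the male-labelled and 2.31 ± 0.29 in the female-labelled libraries (SD, n = 3 each), a difference of 0.38 log2 (SE 0.17, limma adjusted p = 0.948). Its other probe gave 0.31 log2. Without the library labelled female 1 the PSMC6 difference was 0.22. The other ATPases were closer to 0: PSMC5 differed by 0.18, PSMC3 by 0.07, PSMC2 by -0.03 (0.02 with median scaling) and PSMC1 by -0.10 log2. Probes disagreed in sign for PSMC1, whose second probe gave 0.06, and for PSMC2, whose second probe gave 0.009. They also did for PSMC3, whose dimmest probe gave -0.04.

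Over all 65 genes, 4 (6.15%) had all 3 male-labelled libraries above all 3 female-labelled ones, against 3.86% of all features and 5.78% of named genes: PSMC6, CCT8, HSPB2 and HSPA13. The reverse held for 2 (3.08%), DNAJB12 and DNAJC17, against 4.15% of all features. Both shares were near those of the whole array.

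Among the other 19S subunits, PSMD14, the enzyme that cuts ubiquitin chains off before degradation, read 1.45, 1.61 and 1.23 in the male-labelled libraries, against 0.95, 1.22 and 1.33 in the female-labelled ones. PSMD4, a ubiquitin receptor, read 0.51, 0.54 and 0.47 in the male-labelled libraries, against 0.29, 0.32 and 0.49 in the female-labelled libraries. Both again had the libraries labelled female 1 and 2 lowest, without a gap for PSMD14, where that labelled female 2 was close to that labelled male 3. PSMD10, PSMD5 and PSMD9 help to assemble the base and are not part of the finished particle. PSMD10 differed by 0.20 log2 (SE 0.13) and PSMD5 by 0.16 (SE 0.14), while PSMD9 was at -0.17 (SE 0.16). PSMD5 and PSMD9 were named after their values were seen.

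PSME4, the nuclear activator PA200 that caps the 20S core in place of the 19S particle, ran opposite to the core. It read -1.15, -1.30 and -1.18 in the libraries labelled male 1, 2 and 3, against -0.57, -0.62 and -1.26 in those labelled female 1, 2 and 3. The libraries labelled female 1 and 2 were the high ones, and that labelled female 3 lay among the male-labelled ones. Its means were -1.21 ± 0.08 in the male-labelled and -0.82 ± 0.38 in the female-labelled libraries (SD, n = 3 each), a difference of -0.39 log2 (SE 0.21, limma adjusted p = 0.948). The second PSME4 probe gave -0.54 log2. PSME3, the other nuclear activator measured, differed by 0.08 log2 (SE 0.13).

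PSMD2, a large scaffold of the 19S base, had the widest spread of the proteasome genes, and it came from 1 probe. The brightest probe read 1.85, 2.91 and 2.98 in the libraries labelled male 1, 2 and 3, against 1.50, 2.86 and 1.87 in those labelled female 1, 2 and 3. The libraries fell into a high set (male 2, male 3 and female 2) and a low set, 2.80-fold apart at the extremes. The other 4 probes of the gene did not follow it. The second brightest read 0.88, 0.64 and 0.68 in the male-labelled libraries, against 1.11, 0.64 and 0.73 in the female-labelled ones, with the library labelled female 1 at the top, where the brightest probe had it at the bottom. The difference was 0.51 log2 (SE 0.45) on the brightest probe and between -0.28 and -0.09 on the other 4, and the mean of all 5 gave -0.02. Why 1 probe departs from the rest was not tested.

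**Figure D3:**
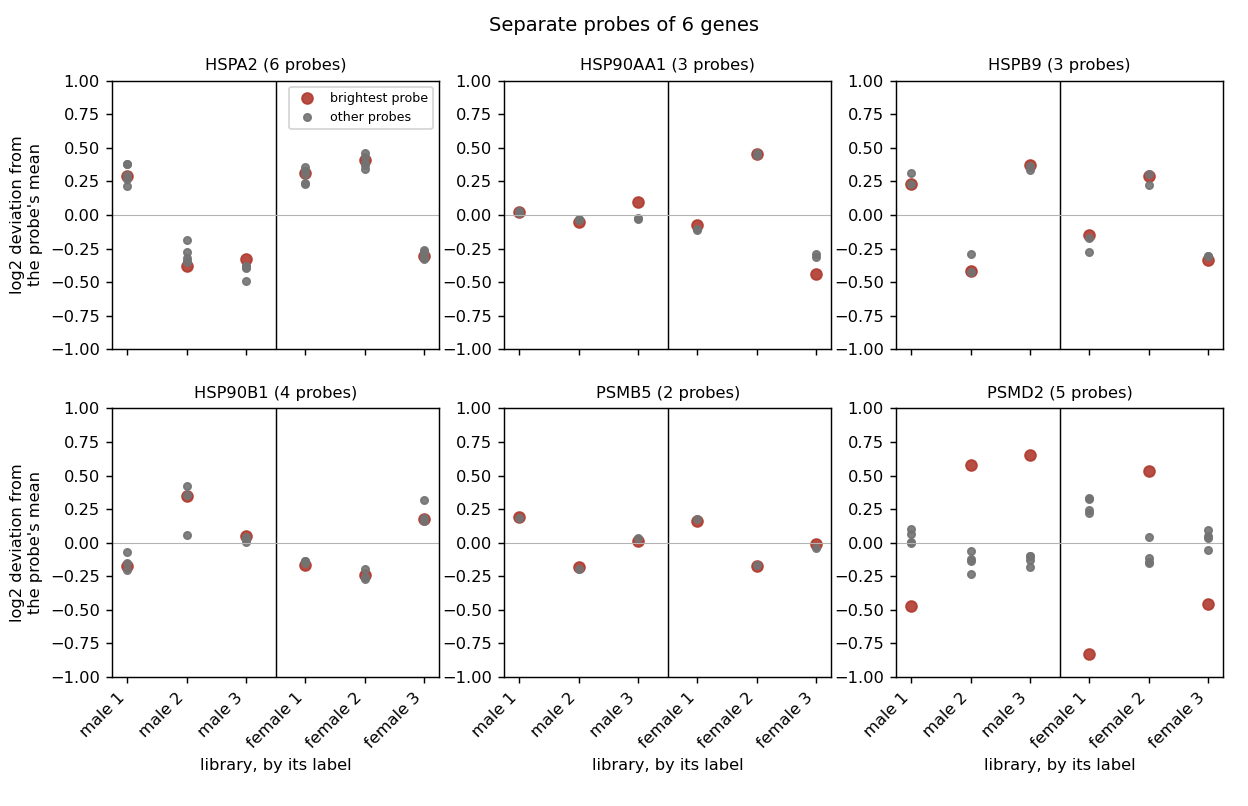
Deviation of every probe of HSPA2, HSP90AA1, HSPB9, HSP90B1, PSMB5 and PSMD2 from that probe's own mean over the 6 libraries (log2), with the brightest probe in red and the others in grey. The probes of the first 5 genes order the libraries much alike, and the brightest PSMD2 probe runs against the other 4.

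Heat shock protein genes did not separate the labels either. Of 15, 11 had the higher mean in the male-labelled libraries, and no gene passed. Their median difference was 0.09 log2, with 0.04 without the library labelled male 3 or female 1 and 0.02 without that labelled female 3. By library the family's median deviation was 0.03, 0.04 and 0.02 log2 in the male-labelled libraries, against -0.11, 0.15 and -0.10 in those labelled female 1, 2 and 3. The one labelled female 2 was the highest of the 6 for 6 of the 15 genes (40.0%), against 13.2% of named genes and 17.1% of all features. These 6 were HSP90AA1, HSPA2, HSPA8, HSPH1, HSPD1 and HSPA4L, the last named after its values were seen.

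HSP90AA1, a cytosolic HSP90 that heat induces, was one of them. It read 5.63, 5.56 and 5.71 in the male-labelled libraries, against 5.54, 6.07 and 5.18 in those labelled female 1, 2 and 3. The female-labelled libraries thus held both the highest and the lowest value, 1.85-fold apart, and spanned the male-labelled ones. The means were 5.63 ± 0.08 in the male-labelled and 5.59 ± 0.45 in the female-labelled libraries (SD, n = 3 each), a difference of 0.04 log2 (SE 0.24, limma adjusted p = 0.983). The other probes differed by -0.02 and -0.04 log2, and the brightest by -0.17 without the library labelled female 3. All 3 probes of the gene had the libraries labelled female 2 and female 3 at the top and the bottom.

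HSPH1, an HSP110 exchange factor for HSP70, had the same libraries at both ends. It read 0.28, 0.31 and 0.23 in the male-labelled libraries, against 0.11, 0.46 and -0.07 in those labelled female 1, 2 and 3. HSPD1, the mitochondrial chaperonin HSP60, read 2.68, 2.62 and 2.57 in the male-labelled libraries, against 2.45, 2.75 and 2.38 in the female-labelled libraries, and the library labelled female 2 was highest on all 5 of its probes. HSPE1, the lid of that chaperonin, did not share this order: it read 4.28, 4.21 and 4.07 in the male-labelled libraries, against 3.73, 4.01 and 4.33 in the female-labelled ones, with the library labelled female 3 at the top. HSPD1 and HSPE1 are both on chromosome 7 in the RefSeq table. The HSPD1 difference between the labels was 0.09 log2 on its brightest probe and between -0.09 and -0.01 on its other probes.

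HSPA2, listed with the synonym HSP70, split the libraries into a high and a low set that cut across the labels. It read 5.26, 4.59 and 4.64 in the libraries labelled male 1, 2 and 3, against 5.28, 5.38 and 4.66 in those labelled female 1, 2 and 3. The libraries labelled male 1, female 1 and female 2 were high and the other 3 low, with no value between 4.66 and 5.26. All 6 probes of the gene made the same split. The means were 4.83 ± 0.37 in the male-labelled and 5.11 ± 0.39 in the female-labelled libraries (SD, n = 3 each), a difference of -0.28 log2 (SE 0.27, limma adjusted p = 0.948).

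HSPA8, the constitutive cytosolic HSP70 that works on new chains in every cell, spanned 1.34-fold over the libraries. It read 5.84, 6.05 and 5.93 in the male-labelled libraries, against 5.65, 6.08 and 5.98 in the female-labelled ones, and that labelled female 1 was lowest on all 3 of its probes. HSPA9, the HSP70 of mitochondria, differed by 0.09 log2 (SE 0.13). HSPA13, an HSP70 relative of the secretory pathway, read -1.49, -1.49 and -1.41 in the male-labelled libraries, against -1.53, -1.61 and -1.58 in the female-labelled ones. Its groups did not overlap, but they lay 0.11 log2 apart in the mean (0.06 with normexp background correction), 1 of its other 2 probes gave a difference of the opposite sign, and its unadjusted p was 0.372 (limma adjusted p = 0.948).

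**Figure D4:**
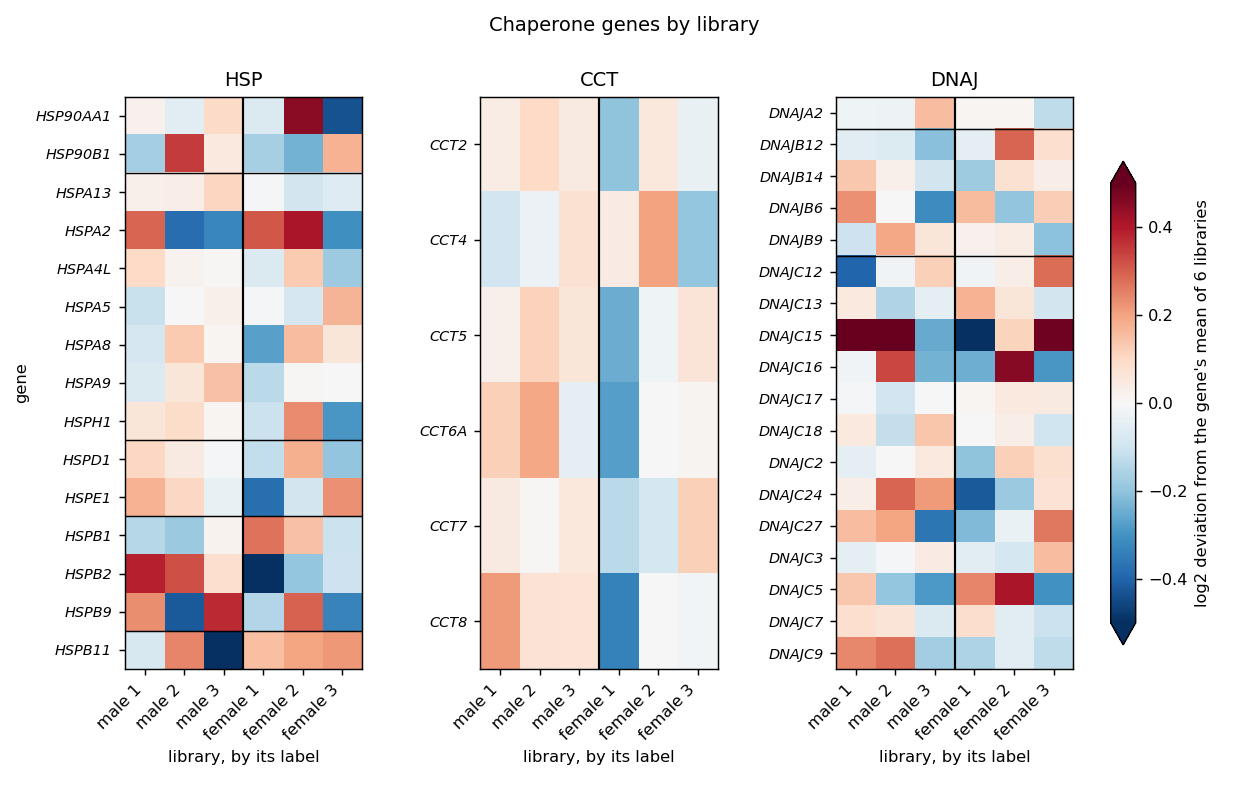
Deviation of each HSP, CCT and DNAJ gene from its own mean over the 6 libraries (log2, colour), with libraries across by label; colours saturate at 0.5 in either direction. HSP90AA1 is highest in the library labelled female 2 and lowest in that labelled female 3, HSPA2 is high in those labelled male 1, female 1 and female 2, and 5 of 6 CCT genes are lowest in that labelled female 1.

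Chaperones of the endoplasmic reticulum did not share 1 order of libraries. HSP90B1, the HSP90 of that compartment, read 3.06, 3.58 and 3.28 in the libraries labelled male 1, 2 and 3, against 3.07, 3.00 and 3.41 in those labelled female 1, 2 and 3. The libraries labelled male 2 and female 3 were the highest, and all 4 probes had that labelled female 2 lowest. HSPA5, also called GRP78 or BiP, read 4.998, 5.11 and 5.13 in the male-labelled libraries, against 5.11, 5.03 and 5.28 in the female-labelled libraries. All 3 of its probes had the library labelled female 3 at the top. DNAJC3, a J protein that works with HSPA5, read 3.66, 3.71 and 3.75 in the male-labelled libraries, against 3.66, 3.63 and 3.87 in the female-labelled ones. That labelled female 3 was highest on this probe alone: of its other 3 probes, 2 were highest in the library labelled female 1 and 1 in that labelled male 3. DNAJB9, another J protein of this compartment, read -1.18, -0.88 and -1.01 in the male-labelled libraries, against -1.05, -1.04 and -1.28 in the female-labelled ones, with the library labelled female 3 lowest on both of its probes.

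Small heat shock proteins bind unfolding proteins without ATP. HSPB2, known from mammalian heart and skeletal muscle, had the smallest p of the 65 genes. It read -4.91, -4.98 and -5.22 in the male-labelled libraries, against -5.80, -5.49 and -5.40 in the female-labelled ones. The groups did not overlap. The means were -5.04 ± 0.16 in the male-labelled and -5.57 ± 0.21 in the female-labelled libraries (SD, n = 3 each), a difference of 0.53 log2 (SE 0.16, 1.44-fold), with an unadjusted p of 0.0171 and a limma adjusted p of 0.948. With normexp background correction the HSPB2 difference was 0.215 log2. It has 1 probe, which was dim although well above background on every array. HSPB1, the HSP27 of mammals, read -4.34, -4.39 and -4.18 in the male-labelled libraries, against -3.93, -4.05 and -4.31 in the female-labelled ones, a difference of -0.21 log2 (SE 0.15) that was -0.0039 with normexp background correction.

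HSPB9, listed with the synonym HSP25, was high in some libraries of each label. It read 0.68, 0.03 and 0.82 in the libraries labelled male 1, 2 and 3, against 0.30, 0.74 and 0.11 in those labelled female 1, 2 and 3. The library labelled male 2 was lowest on the 2 brighter of its 3 probes, and that labelled male 3 was highest on all 3. HSPB11, which despite its symbol is a part of the transport machinery of cilia (IFT25), read -1.44, -1.11 and -2.08 in the male-labelled libraries, against -1.21, -1.16 and -1.14 in the female-labelled libraries. Only the library labelled male 3 stood away from the rest. Without that library the difference was -0.11 log2, against -0.37 with it, and the gene's other probe gave 0.17.

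Most CCT genes read lowest in 1 library. TCP1, the subunit with a symbol of its own, is counted among the pathway genes. Of the 6 CCT genes, 5 had the higher mean in the male-labelled libraries, none passed, and the median difference was 0.13 log2. By library their median deviation was 0.04, 0.09 and 0.06 log2 in the male-labelled libraries, against -0.22, 0.00 and 0.00 in those labelled female 1, 2 and 3. The library labelled female 1 was lowest for 5 of the 6 genes (83.3%), all but CCT4, against 27.5% of named genes and 19.9% of all features. Without it the median difference of the family was 0.05 log2.

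CCT8 read 2.91, 2.77 and 2.76 in the male-labelled libraries, against 2.36, 2.69 and 2.68 in the female-labelled ones. The groups did not overlap, by 0.07 log2 at the closest pair. The means were 2.81 ± 0.08 in the male-labelled and 2.58 ± 0.19 in the female-labelled libraries (SD, n = 3 each), a difference of 0.23 log2 (SE 0.15, limma adjusted p = 0.948), and its other 2 probes gave 0.18 and 0.23. CCT6A differed by 0.18 log2 (SE 0.15), CCT5 by 0.13 (SE 0.14), CCT2 by 0.12 (SE 0.13) and CCT7 by 0.07 (SE 0.13). CCT4 read 4.51, 4.58 and 4.68 in the male-labelled libraries, against 4.65, 4.81 and 4.41 in the female-labelled ones, and so had the order of HSP90AA1 at its ends, with the library labelled female 2 highest and that labelled female 3 lowest. Its difference was -0.03 log2 (SE 0.15), and 0.01 with median scaling. The sign of the difference was the same on every probe for all 5 CCT genes with several probes.

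The DNAJ genes had no common direction. Of 18, 10 had the higher mean in the male-labelled libraries, none passed, and the median difference was 0.02 log2. With the mean of all kept probes 7 of 18 had it, with a median of -0.02. By sign their probes also agreed least: 5 of 13 genes with several probes had the same sign on all of them, against 9 of 13 HSP and 14 of 19 PSM genes. The sign of a small difference turns easily, so this count does not show how closely probes follow each other over the libraries. By correlation over the 6 libraries with the gene's brightest probe, the lowest value was 0.79 for CCT (CCT6A) and 0.09 for HSP genes (HSPA13). It was -0.96 for PSM (PSMD2) and -0.82 for DNAJ genes (DNAJB14, named after its values were seen). DNAJ genes varied widely: the lowest value was -0.22 for DNAJC17 and -0.18 for DNAJB12, but 0.98 for DNAJC5 and 0.99 for DNAJC9. DNAJC24, which takes part in making diphthamide on elongation factor 2, had the smallest p of the family. It read -1.01, -0.76 and -0.83 in the male-labelled libraries, against -1.47, -1.23 and -0.98 in the female-labelled ones, a difference of 0.36 log2 (SE 0.17, limma adjusted p = 0.948). The libraries labelled male 1 and female 3 were close to each other.

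DNAJC15, a J protein of the inner mitochondrial membrane known in mouse to restrain the respiratory chain, had the widest range of all 65 genes. It read 1.96, 2.09 and 1.19 in the libraries labelled male 1, 2 and 3, against -0.07, 1.55 and 1.93 in those labelled female 1, 2 and 3. The library labelled female 1 was 4.48-fold below that labelled male 2 and stood apart from the other 5. The means were 1.75 ± 0.49 in the male-labelled and 1.14 ± 1.06 in the female-labelled libraries (SD, n = 3 each), a difference of 0.61 log2 (SE 0.55, limma adjusted p = 0.948). Without the library labelled female 1 the difference was 0.01. It has 1 probe, so no second one could be set beside it.

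DNAJC9, a J protein that also handles histones, read 1.34, 1.38 and 0.93 in the male-labelled libraries, against 0.95, 1.05 and 0.98 in the female-labelled ones. The libraries labelled male 1 and 2 were above the other 4 on both probes. DNAJC5, the cysteine string protein of secretory vesicles, read 3.75, 3.42 and 3.33 in the male-labelled libraries, against 3.86, 4.02 and 3.31 in the female-labelled libraries. DNAJC16 read 1.77, 2.13 and 1.56 in the male-labelled libraries, against 1.55, 2.25 and 1.50 in the female-labelled ones, so that both libraries numbered 2 were high. Its other probe did not share this order.

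DNAJB12, a J protein in the membrane of the endoplasmic reticulum, read 2.19, 2.18 and 2.04 in the male-labelled libraries, against 2.20, 2.54 and 2.33 in the female-labelled ones. All male-labelled values were below all female-labelled ones, with the libraries labelled male 1 and female 1 almost equal, and 1 of its other 2 probes gave a difference of the opposite sign. Its difference was -0.22 log2 (SE 0.14), or -0.14 with the mean of its probes. DNAJC17 had the same lack of overlap with a difference of -0.07 log2 (SE 0.11), but its other probe gave 0.17, and the mean of both gave 0.05. DNAJA2, DNAJB6 and DNAJC7, partners of cytosolic HSP70, differed by 0.07, -0.06 and 0.05 log2, and each turned sign in an alternative. DNAJA2 was at -0.03 without the libraries labelled male 3 and female 3, and DNAJB6 at 0.13 there, at 0.09 without that labelled male 3 and at 0.01 without that labelled female 1. DNAJC7 was at -0.05 with the mean of its 4 probes. DNAJA1, on chromosome Z and not a member, differed by 0.02 log2 (SE 0.16).

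Without the libraries labelled male 3 and female 3, still none of the 65 genes passed, while 85 of 29509 features did (limma, 0.288%), and the lowest limma adjusted p of a member was 0.135, for PSME4. At an unadjusted p under 0.05 there were 7 members (10.8%), against 21.6% of all features, a lower share than over the whole array. These were PSME4, HSPB2, PSMA5, HSPB1, DNAJC9, PSMD14 and DNAJC24. PSME4 differed by -0.62 log2 (SE 0.13), PSMA5 by 0.36 (SE 0.12) and PSMD14 by 0.45 (SE 0.16). The proteasome median was 0.21 log2 with 22 of 26 genes at the higher mean in the male-labelled libraries, including all 7 of the alpha ring and all 3 of the beta ring. That was 84.6% of the family, against 56.7% of named genes and 45.8% of all features. The median was 0.17 log2 for CCT, 0.03 for HSP and 0.03 for DNAJ genes, against 0.05 for named genes and -0.04 for all features.

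**Figure D5:**
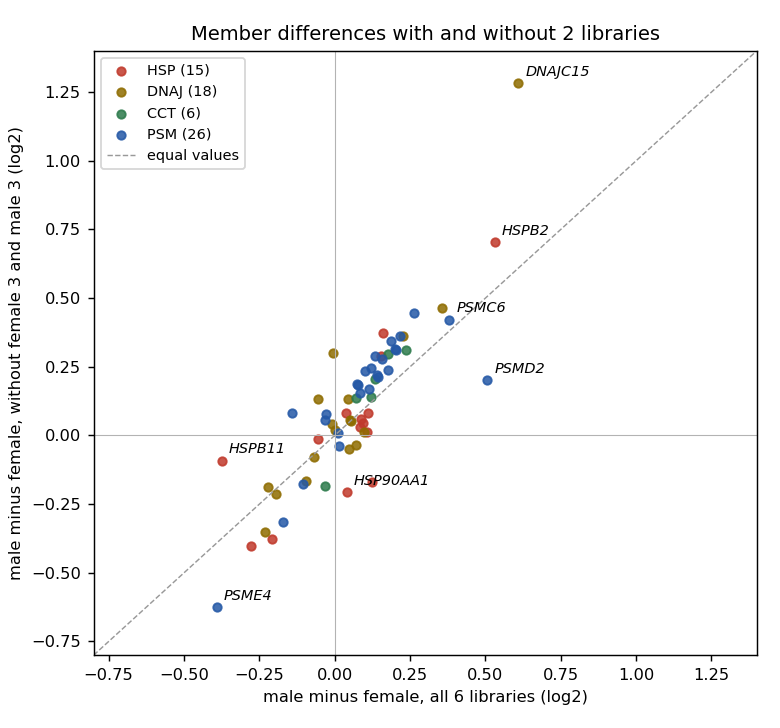
Male minus female difference of each of the 65 genes (log2), with all 6 libraries on the x axis and without the libraries labelled male 3 and female 3 on the y axis, coloured by family; the dashed line marks equal values. Most proteasome genes lie above the line at positive values, and PSME4 lies below it at -0.39 and -0.62.

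None of the other genes measured in these pathways passed. Beside the counts below, 57.3% of named genes and 47.5% of all features had the higher mean in the male-labelled libraries. Of 19 measured cochaperones and heat shock factors, 13 had the higher mean in the male-labelled libraries, with a median difference of 0.08 log2. CHORDC1, an HSP90 cochaperone, read -0.55, -0.55 and -0.87 in the male-labelled libraries, against -0.98, -1.06 and -0.94 in the female-labelled ones, a difference of 0.34 log2 (SE 0.14, limma adjusted p = 0.948). CDC37, which brings kinases to HSP90, was at -0.24 log2 (SE 0.14), TRAP1, the HSP90 of mitochondria, at 0.30 (SE 0.17), and TCP1, named after its value was seen, at 0.07 (SE 0.13). Of 11 measured folding and unfolded protein response genes of the endoplasmic reticulum, 6 had the higher mean in the male-labelled libraries, with a median difference of 0.04 log2. Their median deviation was 0.00, -0.12 and 0.10 log2 in the male-labelled libraries. It was -0.11, -0.09 and 0.24 in those labelled female 1, 2 and 3. By this median the library labelled female 3 was highest, as on all 3 probes of HSPA5. The summed level of the list, however, was 7.101 log2 in that labelled female 1 and 7.097 in that labelled female 3. The genes did not share 1 order: ATF4 was highest in the library labelled female 1 and ERN1 in that labelled female 2. The transcription factor ATF4 was at -0.16 log2 (SE 0.12), the disulfide isomerase PDIA3 at 0.16 (SE 0.12) and the translocon subunit SEC61A1 at -0.15 (SE 0.16). Of 13 measured genes of proteasome assembly and ubiquitin delivery, 9 had the higher mean in the male-labelled libraries, with a median difference of 0.05 log2. The pathway lists, unlike the members, were not limited by chromosome. VCP and ZFAND5 of this list and SGTB of the cochaperones are on chromosome Z, and each had the higher mean in the male-labelled libraries. The median of this list is the value of ZFAND5. PAAF1, which binds the ATPases during assembly, read -0.07, -0.18 and -0.11 in the male-labelled libraries, against -0.46, -0.51 and -0.11 in the female-labelled libraries, with those labelled female 1 and 2 the lowest. NFE2L2, the oxidative stress factor NRF2, was at -0.16 log2 (SE 0.13) and the assembly factor PSMG3 at 0.13 (SE 0.14).

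Markers of blood cell types also differed between the libraries. The library labelled female 1, lowest for most CCT and proteasome genes, also had the lowest summed level of B cell, T cell and cytotoxic cell markers. The summed level of the 7 B cell markers was 6.48 to 6.69 log2 in the male-labelled libraries, against 6.02 to 6.65 in the female-labelled ones, of which 6.02 was that labelled female 1. For the 8 T cell markers it was 8.37 to 8.57 in the male-labelled against 8.17 to 8.66 in the female-labelled libraries, with the lowest value in the same library. For 4 of 6 cytotoxic markers it was 4.77 to 7.33 in the male-labelled against 3.94 to 5.20 in the female-labelled libraries. It was again lowest in that labelled female 1. These sums weigh the brightest probes most. Unlike the members, the marker lists include genes on chromosome Z: PAX5 and CD72 (B cell), IL7R (T cell) and GZMA (cytotoxic). Sums and medians without these genes were not made. By median deviation that library was also lowest for B cell (-0.57 log2), T cell (-0.22) and cytotoxic markers (-1.665). Not every marker followed: BTK of the B cell list was highest there. CD4, CD28 and TCF7 were lowest in that labelled male 2, CD247 in male 3 and FASLG in female 3. The library labelled female 2, also low for proteasome genes, shared only a part of this. Its sums were 6.286 for B cell, 8.465 for T cell and 5.197 for cytotoxic markers, and its T cell median deviation was 0.10 log2. The 5 heterophil markers summed to 1.87 to 5.59 log2 in the male-labelled and 2.62 to 5.94 in the female-labelled libraries, lowest in those labelled male 2 and female 2. The 9 monocyte markers summed to 4.81 to 5.01 in the male-labelled and 4.69 to 4.97 in the female-labelled libraries, and the 5 thrombocyte markers to 7.97 to 8.39 in the male-labelled and 8.25 to 8.44 in the female-labelled ones. The thrombocyte sum was highest in that labelled female 1. The sums of 2 of 5 plasma cell markers were 2.12 to 2.73 in the male-labelled and 2.37 to 2.56 in the female-labelled libraries, and those of the 9 erythroid markers 9.22 to 10.38 in the male-labelled and 9.89 to 10.19 in the female-labelled ones. No marker named on the array was below the filter. The part of cell makeup in the values of the chaperone and proteasome genes was not tested.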

How the data were processed

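The deposited scanner tables held the spot intensity as the authors' Agilent Feature Extraction 11.5.1.1 read it, per the file headers: the processed signal is background-subtracted and detrended within an array and not scaled between arrays, and the grid build is galGal3. The authors' deposited matrix held the same intensity times 1 factor per array. Deposited flags marked spots well above background and outliers; an array lost 3 to 12 outlier spots to these flags.

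From each log2 processed signal the array's own 75th percentile (of spots that are not controls) was subtracted. Of 43603 probes, 35141 were well above background on 3 or more arrays and were kept. Accessions were matched without version to a RefSeq table of chicken genes (assembly bGalGal1.mat.broiler.GRCg7b); the array was built on another assembly, and coordinates are left out. It named 11935 probes. The table holds 104 genes under the name rule outside Z and W, of which the array named 66, with 159 kept probes; the other 38 were not analysed here. No sequence was used.

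Groups came from the labels. The test was limma 3.58.1 in R 4.3.3 (eBayes after lmFit), two-sided. Its p-values were adjusted by Benjamini-Hochberg across the 29509 features, at a threshold of 0.05. The fit was also run on simulated data with independent genes, which held neither the label conflict nor the slides of these libraries. Gene lists are described by counts and medians. Genes were named per family by smallest p, widest range and gap between labels, plus textbook members; exceptions are marked. The members and lists were chosen with earlier results of these data known. The small number of arrays limits precision. The labels do not state that replicate numbers pair the samples, and the main test did not pair them. Deviations from the label means correlated within a number at 0.01, -0.11 and -0.21. These correlations cannot decide pairing, because the libraries labelled male 3 and female 3 went against their labels by HINTW. Pairwise correlations between arrays were 0.970 to 0.988 over features, and no array was a copy of another. Alternatives covered background correction, scaling, filters, probe summaries, test settings and left-out libraries. Python 3.11.15 with pandas 2.3.3 and matplotlib 3.10.9 made the tables and plots.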

Additional observations from a re-analysis of the deposited data

How the results depend on the processing

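In every alternative run, 0 of the 65 chaperone and proteasome genes passed (limma, threshold 0.05), also with every kept probe tested on its own. Over all features the count was 0, with 1 after quantile normalization, 0 to 2 when 1 library was left out (2 without that labelled male 1) and 85 without those labelled male 3 and female 3. The count of members at an unadjusted p under 0.05 was 1. It was 2 after normexp, 2 with the mean of all kept probes, 2 with every probe on its own, 0 to 5 when 1 library was left out (5 without that labelled female 3, and 0 without that labelled female 1 or male 1) and 7 without those labelled male 3 and female 3. The DNAJ median was 0.02 log2, and 0.0702 with median scaling, which adds 0.05 log2 to every gene; it lay between -0.0321 (without that labelled female 1) and 0.04996 (without that labelled male 3) when 1 library was left out, and was -0.02 with the mean of all kept probes. The proteasome median was 0.12 log2, 0.06 to 0.18 when 1 library was left out and 0.21 without those labelled male 3 and female 3. The HSP and CCT medians stayed positive in all alternatives run. Over all alternatives run, 18 to 22 proteasome, 7 to 12 DNAJ, 9 to 11 HSP and 5 to 6 CCT genes had the higher mean in the male-labelled libraries, where 7 of 18 DNAJ genes came with the mean of all kept probes. No scaling moved the median of all features by 0.1 log2. With the replicate number as a block, the counts were again 0 for features and members past the threshold and 1 at an unadjusted p under 0.05, and 1160 features were at an unadjusted p under 0.05 against 1123 without it. By the labels the samples share only a number. In deviations from the label means, those labelled male 1, 2 and 3 correlated best with female 3, 3 and 2. This cannot decide pairing either, given the label conflict of male 3 and female 3. Slide as a block was not run, because each slide holds 1 label. Of the 46 genes given by the naming rule, 0 to 7 changed sign in any 1 alternative. The genes were not the same in each, so more than 7 changed sign in at least 1 of them. Dim probes such as that of HSPB2 lie closest to background, and the HSPB2 difference fell from 0.53 to 0.215 log2 with normexp background correction.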
